A study of Mus musculus with 34 samples.

Results

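The Hox genes of the HoxA, HoxB, HoxC and HoxD clusters were followed through every fraction of the sliced brains of 3 young mice. The set holds 38 genes chosen by name and not by a measured value, with 10 in HoxA, 10 in HoxB, 9 in HoxC and 9 in HoxD. The array reads them with 41 of its 55681 probes (controls left out), since Hoxa9, Hoxa13 and Hoxb3 have 2 probes each, and 20145 genes of the array could be named in all. Each probe was matched to its gene through a RefSeq accession.

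All mice were male C57BL/6J animals without a transgene or a treatment, and they were 3 days old. The brain of mouse 1 was cut in the coronal plane into 15 fractions, that of mouse 2 in the horizontal plane into 8 and that of mouse 3 in the sagittal plane into 11. A fraction pools 100 slices of 5 μm and is 500 μm wide, except that sagittal fractions 1 and 11 each pool 2 such cuts. The total RNA of each fraction was hybridised to 1 single-colour Agilent array, without replicates, and plane and mouse cannot be told apart. Fractions are named by number, because the labels leave the end from which they were counted unstated.

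Hox genes encode homeodomain transcription factors that give the embryo its order along the head to tail axis. Genes at the 3′ end of a cluster, with low paralog numbers, are active up to the hindbrain, whereas genes further 5′ begin at successively more caudal levels of the hindbrain and the spinal cord, an order called colinearity. Hox transcripts are absent from the normal forebrain and midbrain of the embryo, and in neurons of the hindbrain and cord many of them persist after birth, long after the segments that they patterned have disappeared.

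Of 59305 spots (controls left out), an array had between 29598 and 37091 well above background, and none was saturated. Values are log2 of the background-subtracted signal after subtraction of the array's log2 75th percentile (log2 normalized signal), and a probe is called detected on an array where the scanner's flag puts it well above background. They show a probe's change between fractions, and the levels of different probes cannot be set against each other. Repeated spots of a probe on an array had a median SD of 0.34 below a value of -5, of 0.22 between -5 and -3, of 0.09 between -3 and 0 and of 0.06 above 0. Of the marker lists for brain regions, 6 of 8 cerebellar genes and 3 of 5 genes of the medulla and caudal hindbrain were higher in coronal fractions 1 to 3 than in fractions 4 to 15, and 6 of 6 telencephalic genes were lower, so that fractions 1 to 3 lay at the hindbrain end of the series.

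Of the 38 Hox genes, 28 were detected in at least 1 coronal fraction, 24 in at least 1 horizontal and 24 in at least 1 sagittal fraction. In all 3 brains 21 were detected, and 7 were detected in none of the 34 fractions. These 7 were Hoxa11, Hoxb1, Hoxb13, Hoxc9, Hoxc13, Hoxd9 and Hoxd13. By probe, 30, 25 and 25 of the 41 were detected in the coronal, horizontal and sagittal series. Over the array the numbers were 39428, 36777 and 38275 of 55681 probes. Every gene with a paralog number from 2 to 4 (9 of 9) was detected in all 3 brains, as were 9 of 11 with paralog numbers 5 to 8, but only 3 of 16 with paralog numbers 9 to 13 and neither of the 2 members of paralog group 1. Of the 3 genes with paralog numbers 9 to 13, Hoxa13 counted only through scattered detections of its 2 probes. The coronal fractions with most Hox genes were fractions 2 and 3, with 24 genes each, and fraction 14 held 5.

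**Figure D1:**
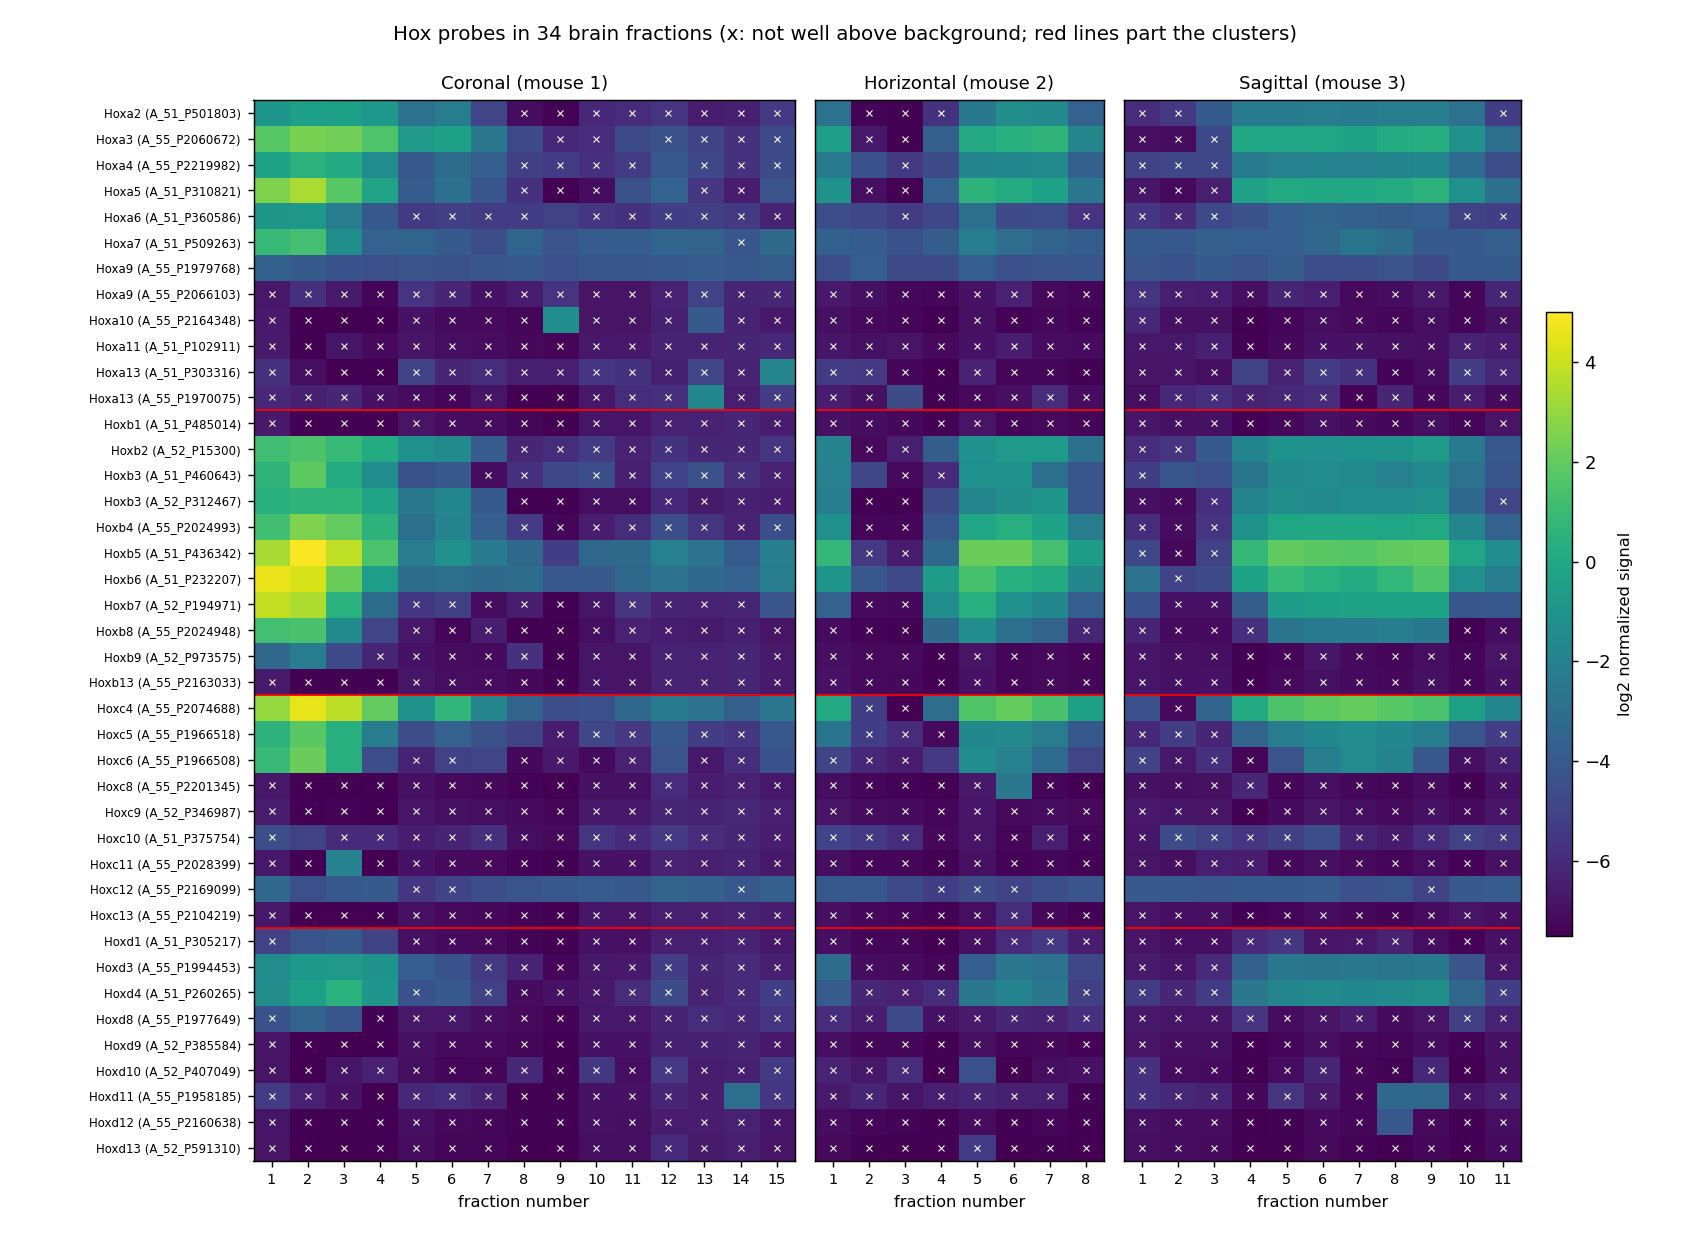
Log2 normalized signal (colour) of the 41 Hox probes (vertical axis, by cluster and paralog number) in the 15 coronal, 8 horizontal and 11 sagittal fractions (horizontal axes, fraction number), with 1 array per fraction. Crosses mark values that are not well above background and red lines part the clusters. Most paralogs 2 to 7 are bright in coronal fractions 1 to 4, in horizontal fractions 5 to 8 and again in horizontal fraction 1, and in sagittal fractions 4 to 9, and most probes of paralogs 9 to 13 are dark throughout.

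Promoter sequences (300 bases around the start of a gene, most of them before it, from RefSeq, build GRCm38.p6) were at hand for 22 of the 38 genes, with 24 promoters. They are shown for 3 genes that stand for the 3 patterns below: Hoxa2, which declined slowly along the coronal series, Hoxb8, which declined steeply, and Hoxd13, which was not detected. Capitals mark TATAAA, the TATA box, and TGATNNAT, the core of a joint Pbx and Hox binding site, on either strand. The windows are chr6:52164782-52165081 on the minus strand for Hoxa2, chr11:96281655-96281954 on the plus strand for Hoxb8 and chr2:74667975-74668274 on the plus strand for Hoxd13.
Hoxa2: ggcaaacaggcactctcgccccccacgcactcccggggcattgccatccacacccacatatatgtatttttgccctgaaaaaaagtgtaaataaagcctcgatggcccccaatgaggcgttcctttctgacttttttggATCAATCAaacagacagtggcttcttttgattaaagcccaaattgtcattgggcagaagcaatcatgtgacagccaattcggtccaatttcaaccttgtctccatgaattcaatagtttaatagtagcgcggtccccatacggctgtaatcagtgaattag
Hoxb8: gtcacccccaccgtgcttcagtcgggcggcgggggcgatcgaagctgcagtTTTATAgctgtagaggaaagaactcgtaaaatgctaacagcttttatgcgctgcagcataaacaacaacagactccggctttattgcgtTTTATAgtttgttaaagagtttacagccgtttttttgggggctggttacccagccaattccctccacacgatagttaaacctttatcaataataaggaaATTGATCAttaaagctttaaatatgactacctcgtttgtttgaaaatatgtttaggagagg
Hoxd13: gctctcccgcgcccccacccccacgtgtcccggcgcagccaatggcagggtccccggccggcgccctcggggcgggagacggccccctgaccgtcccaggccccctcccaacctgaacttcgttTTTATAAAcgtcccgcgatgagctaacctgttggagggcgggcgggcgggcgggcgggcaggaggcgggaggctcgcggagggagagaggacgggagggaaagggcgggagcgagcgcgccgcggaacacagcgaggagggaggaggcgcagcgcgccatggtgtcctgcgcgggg
TATAAA was found in 4 of the 24 Hox promoters (16.7%) and in 13.6% of 32851 promoters of all genes, and TGATNNAT in 4 (16.7%) and in 8.85%. Among the promoters of the 12 genes that the coronal test below called, 2 held TATAAA and 2 held TGATNNAT, and the counts were the same among the 12 promoters of the other members. In Hoxb8 both TATAAA matches are on the opposite strand, and in Hoxd13 the 2 matches overlap. Hox promoters held a median of 14.5 CpG dinucleotides in 300 bases, against 7 over all promoters.

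The coronal series was used to ask which Hox genes were higher at the hindbrain end. Of the 41 probes, 22 (53.7%), for 21 genes, had a higher signal in fractions 1 to 3 than in the other fractions, and none had a lower one, with limma's moderated test (Benjamini-Hochberg adjusted p under 0.05). Over all 55681 probes the share called higher was 3.5%, and the median log2 difference was -0.16. At an unadjusted p under 0.05, 23 of the 41 were higher, against 8.23% of all probes. With the test limited to probes detected in the series 23 of 30 were called, against 6.25%. This filter lets probes in through the fractions where they are high. The coronal detections of Hoxb9 and Hoxd8, for example, all lay in fractions 1 to 3, so that this count adds no support. The called genes were Hoxa2 to Hoxa7, Hoxb2 to Hoxb9, Hoxc4, Hoxc5, Hoxc6, Hoxd1, Hoxd3, Hoxd4 and Hoxd8, so that all 10 probes of paralogs 2 to 4 and 10 of 11 of paralogs 5 to 8 were called, but 1 of 18 of paralogs 9 to 13. By cluster, the calls covered 6 of 12 HoxA probes, 9 of 11 HoxB, 3 of 9 HoxC and 4 of 9 HoxD probes. The log2 differences ranged from 2.28 ± 0.37 (SE) for Hoxd1 to 8.43 ± 0.70 for Hoxb7, with adjusted p-values (limma) between 8.2e-05 and 0.0032. They depend on the background correction: after normexp all 22 were called again, but the differences were 0.42 (Hoxd8) to 5.73 (Hoxb5), with 0.45 for Hoxd1, 0.84 for Hoxb9, 2.06 for Hoxa2 and 5.10 for Hoxb7. The test sets positions in a single mouse against the spread between neighbouring fractions, so that nothing follows from it for other mice.

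The 8 arrays of coronal fractions 1 to 8 shared a slide, and the others lay on 2 further slides. Within that slide all 22 differences were again positive, from 2.27 to 8.04, and 12 of the 22 passed the test, which called 1.61% of all probes higher. The 12 were Hoxa4 to Hoxa7, Hoxb5 to Hoxb9, Hoxc5, Hoxc6 and Hoxd8, whereas the probes that did not pass were those of Hoxd1, Hoxa2, Hoxb2, the paralogs of group 3, Hoxb4, Hoxc4 and Hoxd4. Unlike the main test, this fit took fractions 4 to 8 as 1 group, so that a probe's decline within them counted as spread. The parts of the slide and of this change of model in the lost calls were not tested. Against the next 3 fractions alone (fractions 4 to 6) the 22 differences ranged from 1.37 to 7.13 and none of the 41 probes passed, as did none of the 55681 probes, although 23 of the 41 were higher at an unadjusted p under 0.05. The summed linear signal of 3 cartilage and bone genes, in units of the array's 75th percentile, was 4.09 to 5.00 in fractions 1 to 3 and 0.447 to 2.95 in fractions 4 to 15, with Col2a1, a cartilage collagen, higher by 2.43 ± 0.42 on the log2 scale (limma, adjusted p = 0.0044) and Ibsp, a bone protein, at no detected level in fractions 1 to 3. The sum of 6 genes of meninges and fibroblasts was 86.8 to 192.5 in fractions 1 to 3 and 44.9 to 234.7 in the others, with none of the 6 called, and none of 6 genes of skeletal muscle was called either. The part of such tissue in the Hox values was not tested. In a bulk fraction, fewer cells of a type and less RNA per cell cannot be told apart.

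The genes nearest the 3′ end declined slowly. Hoxa2, which sets the identity of the rostral hindbrain and of the second branchial arch, measured -0.94, -0.46, -0.40, -0.82, -2.83 and -2.27 in coronal fractions 1 to 6, and -7.41 to -4.88 in fractions 7 to 15, with a median of -6.07. Hoxb2, which acts in the segment of the facial motor neurons, measured 1.15, 1.53, 0.89, 0.18, -1.25 and -1.56 in fractions 1 to 6, and -6.37 to -3.90 with a median of -5.84 in fractions 7 to 15. Both were detected in fractions 1 to 7 without a gap and in no later fraction. Hoxa2 thus differed by only 0.36 between fractions 2 and 4, and most of its fall lay beyond fraction 4. The mean of fractions 1 to 3 exceeded that of the others by 4.50 ± 0.50 (limma, adjusted p = 0.00032) for Hoxa2 and by 5.67 ± 0.45 (adjusted p = 8.2e-05) for Hoxb2.

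Paralog group 3, whose members specify motor neurons and migrating neurons of the caudal hindbrain, showed the same shape. Hoxa3 measured 1.76, 2.43, 2.28, 1.56, -0.75 and -0.38 in fractions 1 to 6 and -6.06 to -2.53 with a median of -4.71 in fractions 7 to 15. Hoxd3 measured -1.46, -0.83, -0.80, -1.11, -3.75 and -4.35 in fractions 1 to 6, and in fractions 7 to 15, where it was not detected, -7.34 to -5.24 with a median of -6.25. From fraction 2 to fraction 4 Hoxa3 lost 0.87 and Hoxd3 lost 0.29, far less than beyond fraction 4. The 2 probes of Hoxb3 disagreed. Probe A_52_P312467 measured 0.43, 0.65, 0.68 and -0.22 in fractions 1 to 4, and probe A_51_P460643 measured 0.66, 1.85, 0.18 and -1.37. The first probe of Hoxb3 therefore fell by 0.86 between fractions 2 and 4, as Hoxa3 did by 0.87, and the second by 3.22, as much as Hoxa6 in group 6 (3.18). The files do not say which transcripts the 2 probes read.

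Group 4, whose genes reach up to the segments of the caudal medulla, fell somewhat earlier, except in HoxD. Hoxb4 measured 1.23, 2.58, 1.99, 0.57, -2.97 and -1.93 in coronal fractions 1 to 6 and -7.35 to -3.79 with a median of -5.58 in fractions 7 to 15. Hoxc4 measured 3.04, 4.56, 3.78, 2.01, -1.13 and 0.74 in fractions 1 to 6, was detected in all 15 fractions and had values of -4.54 to -1.80 with a median of -3.35 in fractions 7 to 15. Hoxd4 measured -1.31, -0.43, 0.49, -0.97, -4.34 and -3.99 in fractions 1 to 6, with -7.12 to -4.62 and a median of -6.03 in the rest, and peaked in fraction 3. Hoxa4 and Hoxb4 fell by 1.95 and 2.01 between fractions 2 and 4, Hoxc4 by 2.55 and Hoxd4 by 0.54.

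Group 5 marks neurons of the cervical cord and the caudal medulla, and Hoxa5 and Hoxc5 are needed by the phrenic motor neurons that drive breathing. Hoxa5 measured 2.57, 3.39, 1.77, -0.20, -3.86 and -2.92 in coronal fractions 1 to 6 and -7.73 to -3.59 with a median of -5.50 in fractions 7 to 15. Hoxb5 measured 3.36, 4.92, 3.79, 1.48, -2.26 and -1.21 in fractions 1 to 6 and -5.22 to -2.07 with a median of -3.19 in fractions 7 to 15, in all of which it was detected. Hoxc5 measured 0.57, 1.82, 0.31, -2.23, -4.54 and -3.55 in fractions 1 to 6 and -6.52 to -4.04 with a median of -4.94 in the rest. All 3 peaked in fraction 2 and lost 3.59, 3.44 and 4.05 by fraction 4.

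In groups 6 and 7 the signal fell steeply beyond fraction 2. Hoxb6 measured 4.62, 4.22, 2.21, -0.48, -3.06 and -2.98 in coronal fractions 1 to 6 and -4.11 to -2.22 with a median of -3.23 in fractions 7 to 15. Hoxb7 measured 3.83, 3.44, 0.47, -3.06, -5.48 and -5.12 in fractions 1 to 6 and -7.41 to -4.22 with a median of -6.35 in the rest. Hoxb6 and Hoxb7 were the only called genes that peaked in fraction 1, and 15 other called probes peaked in fraction 2 and 5 in fraction 3. Hoxc6, a marker of the motor columns that supply the forelimb, measured 0.92, 2.15, 0.32, -4.55, -6.24 and -5.06 in fractions 1 to 6 and -7.21 to -4.31 with a median of -6.37 in the rest, a fall of 6.70 between fractions 2 and 4 that was the largest among the called probes. Hoxa6 (-0.88, -0.85, -2.20 and -4.03 in fractions 1 to 4) and Hoxa7 (0.88, 1.26, -1.30 and -3.58) followed, with falls of 3.18 and 4.84 between fractions 2 and 4.

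Among group 8 genes, Hoxb8, which is active in the spinal cord and in a lineage of microglia, measured 1.26, 1.42, -1.56 and -4.90 in coronal fractions 1 to 4, and -7.65 to -6.38 with a median of -6.60 in fractions 7 to 15, and was detected in fractions 1 to 4 alone. Hoxd8 was detected in fractions 2 and 3 (-3.54 and -4.14). Its mean was -4.02 in fractions 1 to 3 and -6.62 in the other fractions, a log2 difference of 2.60 ± 0.20 (limma, adjusted p = 8.2e-05). None of the other fractions detected it, so that the difference was also put as a fold against the lowest detected signals of those arrays, 1.80. This fold was not tested. Fraction 1 (-4.37) did not detect Hoxd8 either, so that it is no strict lower bound. Hoxc8, which patterns motor neurons of the forelimb level, was detected in no coronal fraction. The last gene of the series in the 5′ direction to be called was Hoxb9, a gene of thoracic levels. It measured -3.37, -2.24 and -4.71 in fractions 1 to 3 and was not detected beyond them, a bound of at least 2.68-fold. The test was of the log2 difference from the undetected values, 3.19 ± 0.44 (limma, adjusted p = 0.0011). Hoxd1, which acts in pain-sensing neurons, was the only called gene of group 1. It was detected at -4.26, -4.03 and -4.93 in fractions 2 to 4, where repeated spots differ by an SD of 0.22, and not in fraction 1 (-5.07).

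The fall between coronal fractions 2 and 4 thus grew with the paralog number. Among the 19 called probes detected in each of fractions 1 to 4, it ranged from 0.36 to 1.34 in group 2, from 0.29 to 3.22 in group 3, from 0.54 to 2.55 in group 4, from 3.44 to 4.05 in group 5, from 3.18 to 6.70 in group 6, and it was at least 4.84 in group 7 and 6.33 for Hoxb8. The rank correlation of the fall with the paralog number across these 19 probes was 0.86 and Pearson's r was 0.88. These are descriptions across probes of the same 2 arrays, and a change of scale of an array would move all of them by the same amount and leave their order. After a normexp background correction, chosen for this check after the values were seen, the falls ranged from 0.24 to 5.27 and the rank correlation was 0.83. Counted on from the fraction of its peak, the last fraction in which a probe kept at least 0.5 of its highest linear signal was fraction 3 or 4 for groups 2 to 4, except fraction 2 for one Hoxb3 probe, and fraction 2 for every such probe of groups 5 to 8 (rank correlation with the paralog number -0.80). The length of the unbroken run of detected fractions from fraction 1 had a rank correlation of -0.14 with the paralog number.

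**Figure D2:**
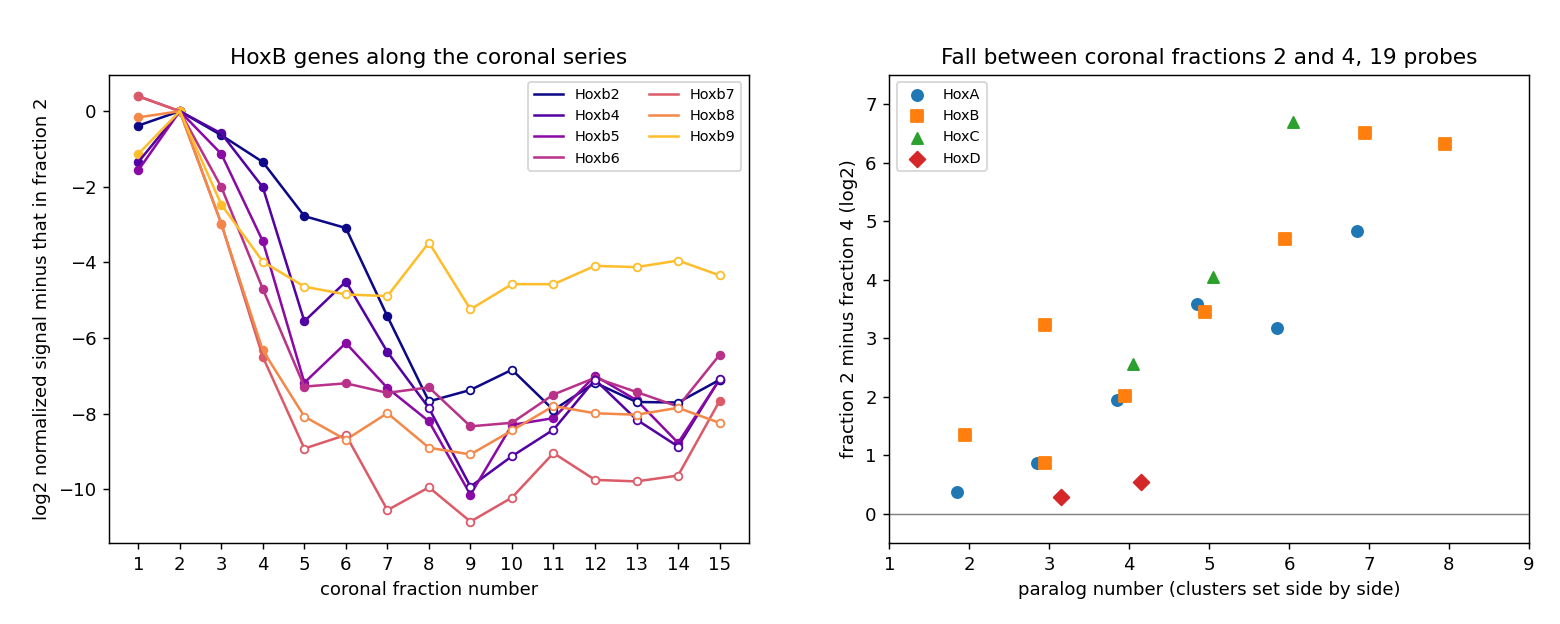
Left, log2 normalized signal of 7 HoxB genes minus its value in coronal fraction 2 (vertical axis) by coronal fraction number (horizontal axis), with filled points for detected and open points for undetected values, 1 array per point. Right, fall of the log2 normalized signal between coronal fractions 2 and 4 (vertical axis) by paralog number (horizontal axis, clusters shifted sideways) for the 19 called probes detected in fractions 1 to 4, which goes from 0.29 for Hoxd3 to 6.70 for Hoxc6. The flat tail of Hoxb9 lies at undetected values.

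Between coronal fractions 5 and 6 the decline was not even. Fraction 5 was lower than fraction 6 in 11 of the 14 called probes detected in fractions 1 to 6. The largest such step was that of Hoxc4, from -1.13 in fraction 5 to 0.74 in fraction 6, followed by Hoxb4, Hoxb5 and Hoxc5 with steps of 1.05, 1.05 and 0.99. Hoxb2, Hoxd3 and Hoxa7 ran the other way, by -0.32, -0.60 and -0.48. Over the 32530 probes detected in either fraction the median difference was 0.01, with 52.2% of them higher in fraction 6. By this same rule, 12 of 15 called Hox probes were higher in fraction 6. Both arrays lay on the same slide.

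In coronal fractions 8 to 15, 12 of the 22 called probes were detected at least once, in 45 of 176 probe and fraction pairs. Hoxb5, Hoxb6 and Hoxc4 were detected in all 8 of these fractions, and the highest value was -2.07 for Hoxb5 in fraction 12. The number of called probes detected was 6, 6, 4, 6, 8, 4, 3 and 8 in fractions 8 to 15, in which fraction 12, measured on a slide of its own among the coronal arrays, and fraction 15 were the highest. The other 10 called probes, those of Hoxa2, Hoxb2, Hoxb3 (A_52_P312467), Hoxb4, Hoxb8, Hoxb9, Hoxd1, Hoxd3, Hoxd4 and Hoxd8, were detected in none of them.

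In the horizontal series Hox signal was split between the high-numbered fractions and fraction 1. Of the 22 probes called in the coronal series, 19 were detected in each of fractions 5, 6 and 7, 16 in fraction 8 and 14 in fraction 4, but 5 in fraction 2 and 3 in fraction 3, and 17 in fraction 1. Hoxb5 measured 0.82, -5.43, -6.55, -3.25, 2.20, 2.21, 1.32 and -0.65 in fractions 1 to 8. Hoxc4 measured 0.10, -5.22, -7.53, -3.06, 1.63, 2.07, 1.43 and -0.39, and Hoxa3 measured -0.48, -6.70, -7.44, -3.66, 0.03, 0.38, 0.69 and -1.79. None of these 3 genes was detected in fractions 2 and 3, and each was detected in all the others.

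No Hox probe differed between horizontal fractions 6 to 8 and fractions 1 to 3 at an adjusted p under 0.05 (limma, lowest adjusted p 0.14), and no probe of the array did (0.0% called). The test has little power: in simulated data it found 8 of 100 planted log2 differences of 1 and 56 of 100 of 2. At an unadjusted p under 0.05, 9 of the 41 Hox probes were higher in fractions 6 to 8, against 4.67% of all probes, and 1, Hoxc10, was lower. Limited to probes detected in the series, the test called 0 of 25 Hox probes (0.00816% of all) and 7 at an unadjusted p under 0.05 (7.11% of all). As in the coronal series, this filter lets probes in through the fractions where they are high, so that the 7 add no support. The count at an unadjusted p under 0.05 rested on single fractions: it was 14 without fraction 1 and 12 without fraction 8, but 3 without fraction 2, 3, 6 or 7 and 2 within the slide of fractions 1, 2 and 5 to 8, with no call after adjustment in any of these. Hoxb8 and Hoxc6 were undetected in fractions 1 to 3. Hoxb8 had a mean of -4.21 in fractions 6 to 8, 1.86-fold above the lowest detected signals of fractions 1 to 3. Fraction 8 (-6.18) did not detect Hoxb8 either, so that this is no strict lower bound. Hoxc6, with a mean of -3.37, was at least 3.34-fold higher in fractions 6 to 8. Neither gene passed the test (limma, adjusted p = 0.25 and 0.48).

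The paralogs also differed in their order along the horizontal axis. Hoxa2 measured -2.47, -1.30, -1.55 and -3.58 in fractions 5 to 8 and Hoxb2 measured -1.16, -0.80, -0.74 and -2.91, so that both peaked in fraction 6 or 7. Hoxb7 measured -1.39, 0.34, -1.18, -1.70 and -3.78 in fractions 4 to 8 and Hoxb8 measured -3.19, -1.34, -2.95, -3.52 and -6.18, with the peak in fraction 5 and fraction 4 above fraction 7. Over the 19 called probes detected in fractions 5 and 7, the difference of fraction 5 minus fraction 7 rose with the paralog number (rank correlation 0.83, Pearson's r 0.84). It was -0.92 to -0.42 in group 2, -0.33 to 0.20 in group 4, 0.58 to 0.93 in group 5, 1.28 to 1.78 in group 6 and 1.29 to 2.05 in group 7, and 2.17 for Hoxb8. In group 3 it was -0.90 to -0.65 for 3 probes and 1.70 for the Hoxb3 probe A_51_P460643, the probe that also fell most steeply of its group in the coronal series. Fractions 5 and 7 lay on the same slide.

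**Figure D3:**
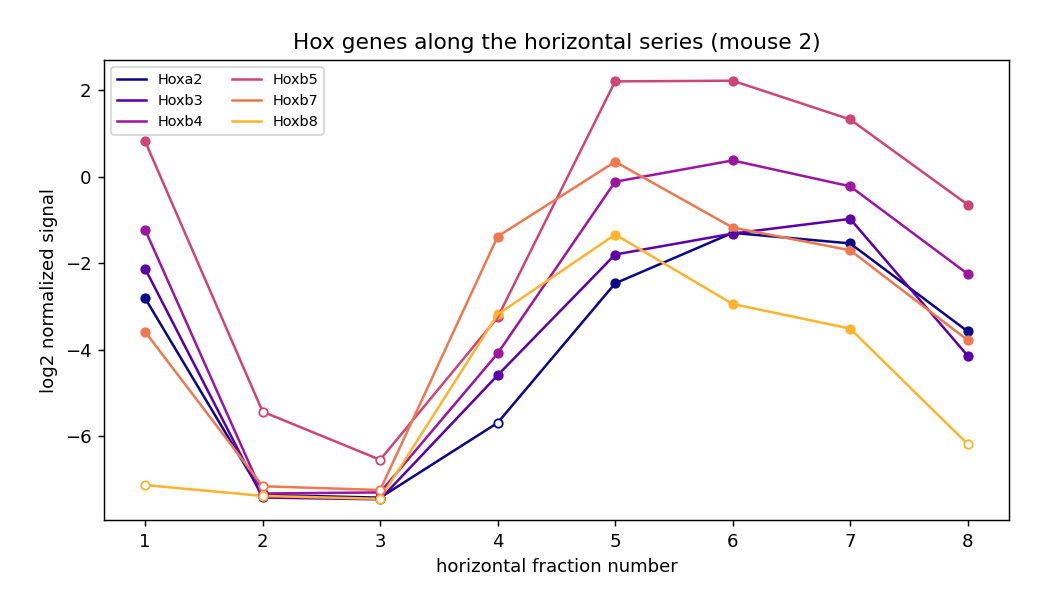
Log2 normalized signal (vertical axis) of 6 Hox genes by horizontal fraction number (horizontal axis), 1 array per fraction, with filled points for detected and open points for undetected values. Hoxa2 and Hoxb3 (probe A_52_P312467) peak in fractions 6 and 7 and Hoxb7 and Hoxb8 in fraction 5, and the first 5 genes of the legend, but not Hoxb8 at -7.13, are detected again in fraction 1. Levels of different genes are not comparable.

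Horizontal fraction 1 lay at the end of the series away from fractions 5 to 8 and yet held Hox transcripts. Over the 22 called probes, fraction 1 minus the mean of fractions 2 and 3 had a median of 3.56 on the log2 scale, and of 0.88 after a normexp background correction, whereas the median over all probes was 0.10. Only 6 of the 22 were detected in fraction 2 or 3 and 5 were not detected in fraction 1, so that most of these differences are taken against values not above background. Hoxb6, detected in all 3 fractions, measured -0.91, -4.10 and -4.74, and Hoxa7, also detected in all 3, measured -3.64, -3.86 and -4.37. The difference was above 2 in 15 of the 41 Hox probes (36.6%) and in 343 of all 55681 (0.616%). Of the probes that were detected in fractions 6, 7 or 8 but in neither fraction 2 nor 3, 12 of 15 Hox probes (80.0%) and 282 of 2238 probes over the array (12.6%) were detected in fraction 1. This comparison has 1 array on a side and no test.

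In all 17 called probes detected in fraction 1 the signal was lower there than at the probe's own horizontal peak. The difference from the peak was -1.17, -1.16 and -0.52 for Hoxa3, Hoxb2 and Hoxd3, and -2.29 and -3.93 for Hoxb6 and Hoxb7, with Hoxa6 and Hoxa7 between them at -1.58 and -1.43. Hoxb8 (-7.13) and Hoxc6 (-4.94) were not detected in fraction 1, although both were detected in fractions 4 to 7. The summed linear signal of the markers of the medulla and caudal hindbrain was 0.917 in fraction 1, 0.0657 to 0.126 in fractions 2 and 3 and 0.385 to 2.03 in fractions 6 to 8, and that of 6 telencephalic markers was 75.7, 96.7 to 100.7 and 65.2 to 75.4. Fractions 1, 2 and 5 to 8 shared a slide, and fractions 3 and 4 lay on another. The reason for the signal in fraction 1 was not tested.

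The sagittal series was used to ask whether Hox genes declined away from the middle of the brain, taken as fraction 6. In 10 of the 41 probes the signal fell with the distance from fraction 6 and in none it rose (limma, adjusted p under 0.05), against 4.58% of all probes that fell. At an unadjusted p under 0.05, 19 of the 41 fell, against 9.29% of all probes. The 10 probes were those of Hoxa2, Hoxa4, Hoxa6, Hoxb2, Hoxb3 (both), Hoxb8, Hoxc5, Hoxd3 and Hoxd4, with slopes from -1.09 to -0.45 per fraction, which were -0.43 to -0.11 after normexp. None of the 41 passed within the slide that held fractions 2 to 9 (0.465% of all probes fell), nor without fractions 1 and 11 (1.17%), where 16 fell at an unadjusted p under 0.05 in either case.

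The Hox profile was not centred on fraction 6. Hoxa5 measured -6.76, -7.19, -6.44, -0.37, 0.08, -0.04, -0.01, 0.20, 0.54, -1.21 and -2.94 in sagittal fractions 1 to 11. Hoxb5 measured -4.77, -7.22, -5.08, 0.83, 1.94, 1.82, 1.72, 1.93, 2.05, -0.10 and -1.43, and Hoxb4 measured -5.86, -7.08, -5.63, -1.09, -0.14, -0.04, -0.05, -0.10, 0.10, -1.84 and -3.58. All 3 formed a plateau from fraction 4 or 5 to fraction 9 and remained detected to fraction 11, but not in fractions 1 to 3. Among the 22 called probes, 19 were detected in fraction 9 and 6 in its counterpart, fraction 3. In fractions 10 and 2 the numbers were 16 and 2, and in fractions 11 and 1 they were 11 and 4.

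In the 6 called probes detected in both, fraction 9 minus fraction 3 was 1.78 for Hoxa2, 3.13 for Hoxb2, 2.93 for the Hoxb3 probe A_51_P460643, 6.13 for Hoxb6 and 4.89 for Hoxc4, but -0.41 for Hoxa7. The centre of the linear signal of a probe along the series lay between 6.22 and 7.08, with a median of 6.91. When the series was folded about a point, all detected probes matched best about fraction 6, with a mean absolute log2 difference between mirrored fractions of 0.33, but the Hox probes matched best about fraction 7, the last point tried, with 0.59 over 4 pairs of fractions, compared with 1.86 over 5 pairs about fraction 6. With the distance taken from fraction 7 or from 6.5, alternatives added after the profiles were seen, 17 and 18 Hox probes were called, against 2.35% and 4.66% of all probes. Markers of the medulla and caudal hindbrain had a summed linear signal of 0.0321 to 0.184 in fractions 1 to 3 and 0.171 to 2.12 in fractions 9 to 11, whereas the cerebellar sum was 8.45 to 23.2 and 10.0 to 22.8. Fraction 1 was on another slide than fractions 2 to 9, and fractions 10 and 11 on a further one. The reason for the off-centre profile was not tested.

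Hoxb8 and Hoxc6 were detected in the fewest sagittal fractions, 5 each, among the 19 called probes detected in fraction 9. Hoxb8 was detected in fractions 5 to 9, at -2.68, -2.39, -2.33, -2.16 and -2.46, and not in fraction 4 (-5.75) or fraction 10 (-7.48). Hoxc6 measured -7.28, -4.28, -2.21, -1.47, -1.90, -3.998 and -7.01 in fractions 4 to 10, a peak in fraction 7 with detection in fractions 5 to 9. Hoxa2, Hoxb2 and Hoxb6 were by contrast detected from fraction 3 to at least fraction 10.

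**Figure D4:**
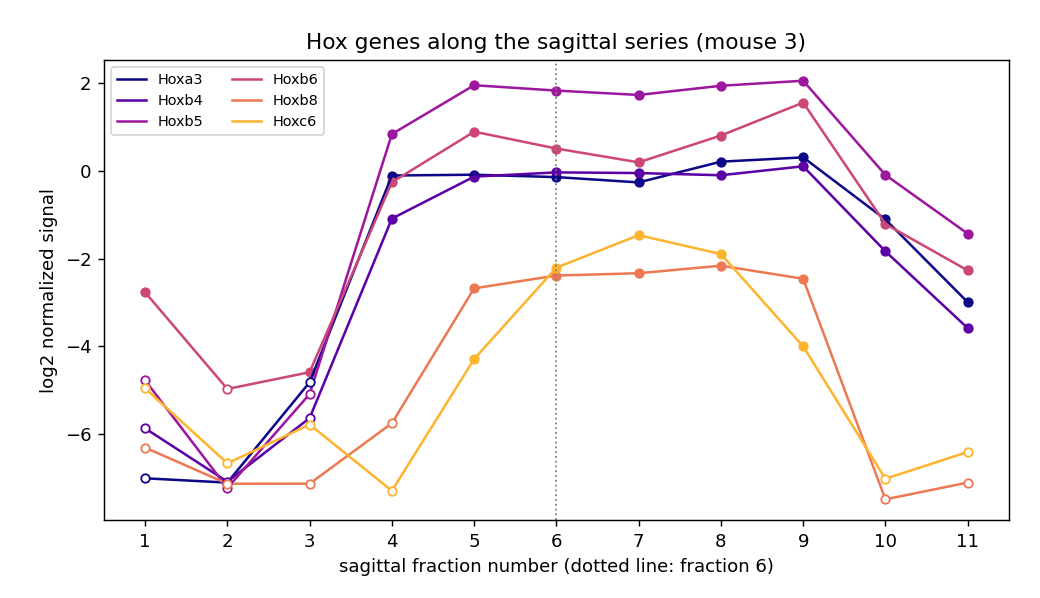
Log2 normalized signal (vertical axis) of 6 Hox genes by sagittal fraction number (horizontal axis, dotted line at fraction 6), 1 array per fraction, with filled points for detected and open points for undetected values. The plateau of Hoxa3, Hoxb4 and Hoxb5 runs from fraction 4 or 5 to fraction 9 and signal reaches fraction 11 on one side, while Hoxb8 and Hoxc6 are detected in fractions 5 to 9. Levels of different genes are not comparable.

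The genes of the 5′ ends of the clusters, which pattern the lower trunk, limbs, hair and urogenital tract, were mostly below detection. The 8 probes never detected had values between -7.78 and -5.06 that moved with the brightness of the array, with a Pearson correlation with the array's 75th percentile between -0.77 and -0.34 over 34 arrays, and these values are no levels. The probe of Hoxa9 that was detected (A_55_P1979768) lay between -4.66 and -3.63 in all 34 fractions, and Hoxc12 was detected in 27 fractions, with detected values between -4.70 and -3.34. Neither differed between coronal fractions 1 to 3 and the others (limma, adjusted p = 0.42 and 0.61). The other probe of Hoxa9 was not detected on any array.

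The remaining detections were scattered, and only those of Hoxd11 included neighbouring fractions. Hoxa10 was detected in coronal fractions 9 (-1.38) and 13 (-4.001), and was undetected in all others. One Hoxa13 probe (A_51_P303316) reached -1.79 in coronal fraction 15 and the other (A_55_P1970075) reached -1.64 in coronal fraction 13, with no array in which both were detected and 1 further detection each, in sagittal fraction 4 (-5.07) and horizontal fraction 3 (-4.57). Hoxc11 reached -1.93 in coronal fraction 3 and Hoxc8 reached -2.47 in horizontal fraction 6, each the sole detection of the probe, with no other array above -6.24 and -5.91. Hoxd12 was detected once, in sagittal fraction 8 at -4.12. Hoxd10 was detected once as well, in horizontal fraction 5 at -4.47. Hoxd11 was detected in coronal fraction 14 (-3.01) and in the neighbouring sagittal fractions 8 and 9 (-3.35 and -3.27), and Hoxc10 in coronal fraction 2 (-5.05) and sagittal fraction 6 (-4.48). With 1 spot of each such probe on each array, there is no repeat of these readings.

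RNAs of the clusters other than the members were rarely informative. Hoxa11os, an RNA antisense to Hoxa11, was detected in 33 fractions and lay between -4.57 and -2.89, and was not called in the coronal test (limma, adjusted p = 0.67). Hoxd3os1 was detected in 3 fractions, at -4.51 in coronal fraction 2, at -2.76 in coronal fraction 5 and at -3.23 in sagittal fraction 7 (limma, coronal adjusted p = 0.25).

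Hox proteins bind DNA together with cofactors of the Pbx, Meis and Pknox families. Each of the 9 cofactor genes was above background on all 34 arrays. In coronal fractions 1 to 3, 2 of the 9 were higher and 1 was lower, and their median log2 difference was -0.11, beside -0.16 over all probes. Meis1, a cofactor that holds Pbx proteins in the nucleus, measured 4.46, 4.67, 4.61, 4.03, 3.53 and 2.98 in fractions 1 to 6, and its mean of 4.58 in fractions 1 to 3 was 2.30 ± 0.29 above that of the others (limma, adjusted p = 0.00064). Pknox1 was higher by 0.66 ± 0.14 (adjusted p = 0.015) and Meis3 lower by 0.64 ± 0.12 (adjusted p = 0.0079). In the sagittal series Pbx3 and Meis1 fell with the distance from fraction 6 by 0.34 each per fraction (limma, adjusted p = 0.016 and 0.042), and Pknox2 rose by 0.13 (adjusted p = 0.017). The horizontal test called none.

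Of 17 genes that regulate hindbrain segments or Hox genes, 2 were higher in coronal fractions 1 to 3. Cyp26b1, an enzyme that breaks down retinoic acid, the signal that switches on 3′ Hox genes in the embryo, was higher by 2.10 ± 0.26 (limma, adjusted p = 0.00058), and Fgf8, a growth factor of the boundary between midbrain and hindbrain, by 2.09 ± 0.50 (adjusted p = 0.024). Cdx2 and Cdx4, activators of 5′ Hox genes in the embryo, were not detected in any fraction. In the sagittal series Gbx2 and Otx2 fell by 1.13 and 0.56 per fraction of distance from fraction 6, and Egr2 and Aldh1a2 rose by 0.31 and 0.24 (limma, adjusted p between 0.0087 and 0.031).

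Polycomb proteins keep Hox genes silent outside their domains and Trithorax proteins keep them active. Of the 13 genes listed 12 could be measured and 11 were detected. Cbx2, a Polycomb subunit, was higher in coronal fractions 1 to 3 by 0.55 ± 0.12 (limma, adjusted p = 0.018), whereas Rnf2 and Bmi1, subunits of the same repressive complex, were lower by 0.48 ± 0.12 and 0.42 ± 0.10 (adjusted p = 0.031 and 0.019). In the sagittal series Ezh1, a histone methyltransferase of the other Polycomb complex, rose by 0.08 per fraction of distance (adjusted p = 0.01). The horizontal test called no gene of these last 2 lists. The Polycomb differences were below the smallest of a called Hox gene, 2.28 for Hoxd1. After normexp the difference was 0.45 for Hoxd1 and 0.42 for Hoxd8, so that this order is given only for the values without normexp.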

How the data were processed

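Fractions of 3 mouse brains were measured on single-colour Agilent arrays (34 samples). The authors scanned the arrays with Agilent Feature Extraction 10.10.1.1 and deposited for each the median intensity of each spot and its background, a background-subtracted processed intensity and flags. They also deposited a table of log2 values of which 99.9% lay within 0.02 of the processed signal less 1 constant per array, and which holds 43199 probes. Coordinates in the files are on mm9.

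Repeated spots were averaged per probe, and log2 values were scaled to each array's 75th percentile by subtraction. Probes were named through RefSeq accessions (26582 of 55681 probes matched, table of assembly GRCm38.p6). All probes were tested without a filter with the linear models of limma 3.58.1, run in R 4.3.3 (two-sided moderated test, Benjamini-Hochberg over all probes). The coronal test took 5 blocks of 3 fractions and set the first against the mean of the other blocks, the horizontal test set fractions 6 to 8 against 1 to 3, and the sagittal test fitted a slope on the distance from fraction 6. Fractions are positions in 1 mouse and not replicates. In the coronal and horizontal tests the p-values therefore measure only the spread between neighbouring fractions. In the sagittal test they measure the spread of the whole series about the fitted slope. A difference between fractions at the same distance on either side of fraction 6 counts there as spread. Of the alternatives, the linear trends and the coronal fit within a slide also count wider changes between fractions as spread. Folds against a group in which no array detected the probe are bounds against the lowest signal among detected probes of each array. They are no strict bounds for Hoxd8 and Hoxb8, whose higher group holds an undetected fraction. The tests were tried on simulated data first, with independent normal values, which ordered positions are not. Of 100 planted log2 differences of 1, the coronal test found 49, the horizontal test 8 and the sagittal test 43. Of 100 differences of 2 they found 75, 56 and 74. In the sagittal series these sizes were those at the fractions furthest from fraction 6.

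The genes and lists were chosen with earlier results of these data known. Named are all members and, from the lists of cofactors, regulators, and Polycomb and Trithorax genes, up to 4 genes per list and series past the test by size, and some results for genes of these lists are not reported here. A gene with 2 probes is represented by the one detected in more fractions. lncRNA probes within the clusters were not analysed here, because the member probes carry no mm9 position that would bound them. Alternatives were other scalings and background corrections (normexp with an offset of 50 on the median signal, as no mean signal was at hand), a filter on detection, an intensity trend, slide terms, other contrasts and leaving out single fractions. Tables were handled with Python 3.11.15, pandas 2.3.3 and numpy 2.4.6 and figures drawn with matplotlib 3.10.9.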

Additional observations from a re-analysis of the deposited data

Results flagged for a closer look

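In the 8 horizontal fractions, 1 value stood far from the other 7 in 5 of the 41 Hox probes (a gap to the nearest value, as a share of the probe's range, above Dixon's critical value). The rate of about 1 in 20 for that value holds for independent normal values. These values are ordered positions, many of them near background, and the share over all probes was not computed. The 5 of 41 can therefore not be set against a rate by chance. Hoxa6 reached -2.92 in fraction 5, with the next value at -4.49. Hoxc8 reached -2.47 in fraction 6, its sole detection, with the next value at -6.64. Hoxd8 reached -4.62 in fraction 3, its sole detection in this series, with the next at -5.83. Hoxc13 in fraction 6 (-5.88) and Hoxd13 in fraction 5 (-5.32) stood apart as well but were not above background. The coronal and sagittal series, with 15 and 11 fractions, were not examined in this way.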

How the results depend on the processing

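No paired analysis was possible because fraction numbers mark positions along different axes of different mice. Among coronal calls, the count of 22 Hox probes higher in fractions 1 to 3 was 12 within the slide of fractions 1 to 8 and 0 against fractions 4 to 6, and leaving out fraction 1, 2 or 3 gave 22 to 23. The other alternatives gave 15 (slide as a covariate) to 23. The fit within the slide took fractions 4 to 8 as 1 group and not in blocks, so that it differs in more than the slide. In the opposite direction, a linear trend called 9 of the 41 Hox probes, beside 13385 of all 55681 probes. Leaving out fraction 1 called 6 of the 41 in that direction, beside 8567 of all 55681. The horizontal count was 0 under every alternative run, including each left-out fraction (0 to 0). The sagittal count of 10 became 17 with a normexp correction, 18 with the distance from 6.5, 17 from fraction 7, and 0 both within the slide of fractions 2 to 9 and without fractions 1 and 11. The median of the last coronal fraction with at least 0.5 of the maximum, fraction 2, was fraction 3 at 0.25 of it, and the median detected run of 7 fractions was 13 with the flag for a signal merely above background. The median rise in horizontal fraction 1, 3.56, was 0.88 after normexp (the cause of these changes was not tested). None of the 22 coronal and 10 sagittal calls reversed its direction. Of the recomputed differences of single probes, 245 of the coronal ones kept their call and 41 lost it, and 80 and 20 of the sagittal ones. Array median scaling moved the share of higher probes among all coronal calls from 43.0% to 62.5% and among sagittal calls from 62.8% to 82.5%, with 22 and 12 Hox probes called. With 1 array per fraction and dim probes near background, small steps between fractions are not resolved.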
